A study of Mus musculus with 6 samples.

Results

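The Hox cluster genes are the 39 rows of the gene tables whose symbol is Hoxa, Hoxb, Hoxc or Hoxd followed by a number, out of 23699 rows for 23235 symbols. The rule that picks them uses the name alone and no measured value, but it was set with earlier results of these data known. RNA of the duodenum was sequenced from 3 mutant and 3 control mice, all 6 weeks old and of mixed background, with 1 library for each animal. The mutants (TNint) were Nkx2.2flox/TN; Villin-Cre/+; Rosa26Tomato/+, in which Villin-Cre recombines floxed alleles in intestinal epithelium. Controls 1 and 2 were Nkx2.2flox/+; Rosa26Tomato/+, and control 3 was Nkx2.2flox/+ without the reporter. All 6 animals carried a floxed Nkx2.2 allele, no control carried Cre, and the TN allele of the mutants was present in every tissue and not in the epithelium alone. The sample was the whole wall of the first 2 cm after the stomach, so epithelium, muscle, stroma, nerve and blood cells were measured together.

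Hox genes encode homeodomain transcription factors that give cells their position along the head to tail axis. In each cluster the genes lie in the order of their paralogue number, and low numbers are in general used towards the head and high numbers towards the tail. In the gut they are known mainly from the mesenchyme, the muscle and the enteric nervous system, with the highest paralogue numbers known for the hindgut. Mice have 4 clusters, HoxA on chromosome 6, HoxB on chromosome 11, HoxC on chromosome 15 and HoxD on chromosome 2.

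The genes of paralogue numbers 5 and 6 stand next to each other in 3 clusters, and in each of these the level dropped between them. The homeoboxes, the part that encodes the DNA-binding homeodomain, of Hoxa5 and Hoxb6 are shown here as 1 gene from each side of that boundary. Each was read from the mouse build NCBIM37 (mm9) through the transcript annotation, runs 5′ to 3′ on the coding strand and lies in 1 exon. Capitals mark the 18 bases that encode the core of the recognition helix, which is the same run of residues in both genes.
Hoxa5 (chr6:52152631-52152810, minus strand): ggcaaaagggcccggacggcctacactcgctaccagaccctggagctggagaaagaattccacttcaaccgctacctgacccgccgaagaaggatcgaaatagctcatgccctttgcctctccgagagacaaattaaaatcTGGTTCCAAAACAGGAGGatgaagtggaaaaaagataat
Hoxb6 (chr11:96162003-96162182, plus strand): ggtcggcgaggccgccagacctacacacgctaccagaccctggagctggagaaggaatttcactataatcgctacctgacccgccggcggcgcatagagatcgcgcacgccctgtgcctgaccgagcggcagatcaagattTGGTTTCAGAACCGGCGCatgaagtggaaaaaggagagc

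The homeoboxes of Hoxa5 and Hoxb6 had the same base at 135 of 180 positions, and 52 of 60 codons encoded the same residue. Their longest run of identical bases at the same place was 26 bases. Over whole annotated transcripts, the longest run that a tested Hox gene shared with another Hox gene had a median of 32 bases, from 20 bases for Hoxc4 to 1069 bases for Hoxb7, whose annotated transcript overlaps that of Hoxb8. That annotation holds a longer Hoxb7 transcript than the deposited tables, in which the spans of Hoxb7 and Hoxb8 are 1320 bases apart.

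Hox transcripts were sparse, and most came from paralogue numbers 1 to 5 of HoxA and HoxB. FPKM is the number of fragments scaled by transcript length and library size, so levels of different genes can be set side by side. Of the 39 genes, 7 averaged at least 1 FPKM over the 6 libraries, 9 lay between 0.1 and 1 FPKM, 10 were detected below 0.1 FPKM, and 13 were listed at 0 in every library. The 13 genes at 0 are 33.3% of the Hox genes, and 21.0% of all rows were at 0 in every library. The reads implied by the confidence intervals of the FPKM values came to 2884 over all Hox genes and libraries, in libraries of 14.21 to 25.91 M implied reads (M, megareads).

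**Figure D1:**
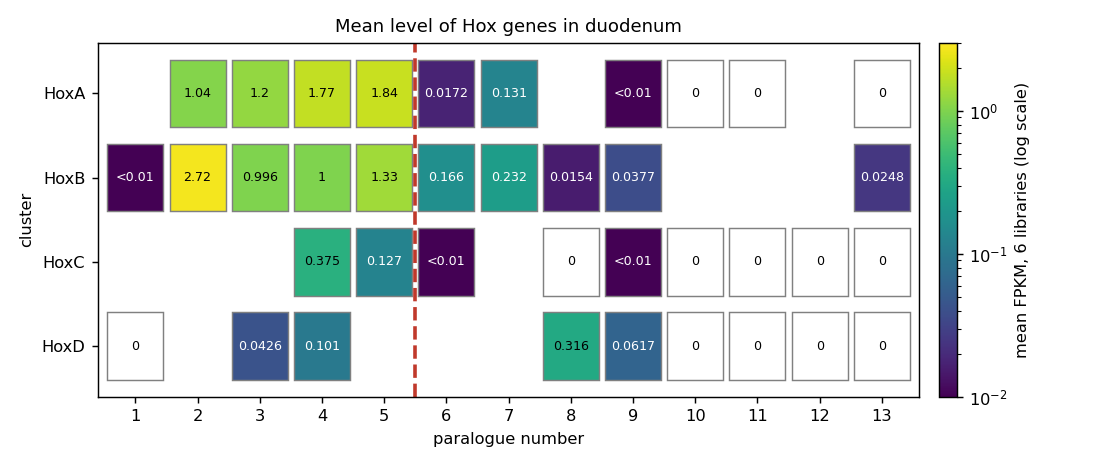
Mean FPKM over the 6 libraries of the Hox genes, with paralogue number across and cluster down, on a log colour scale; white boxes are genes listed at 0 in every library and gaps are genes that mice lack or that are not shown. The dashed line stands between paralogue numbers 5 and 6, and all 7 genes at 1 FPKM or more lie left of it, in HoxA and HoxB.

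Hoxb2, known for patterning the hindbrain, had the highest level of the family (chromosome 11, mm9, 96212946 to 96215328). It had 2.82, 2.90 and 2.23 FPKM in mutants 1, 2 and 3, against 2.90, 2.77 and 2.70 FPKM in controls 1, 2 and 3. It was above the next gene in all 6 libraries, and the groups overlapped. Hoxa2, the other member of this paralogue group, known for patterning the hindbrain and the facial arches, had 0.690, 1.05 and 0.716 FPKM in mutants and 0.772, 1.77 and 1.27 FPKM in controls. Controls 2 and 3 lay above all mutants, and control 1 lay among them.

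Hoxa3, needed for the thymus and parathyroid glands, had 1.15, 1.10 and 0.982 FPKM in mutants, against 1.55, 1.28 and 1.15 FPKM in controls. The lowest control, 1.145 FPKM, and the highest mutant, 1.151 FPKM, were within 0.01 FPKM of each other. Hoxb3, of the same paralogue group, lay just below the level of 1 FPKM, with 0.937, 0.829 and 0.798 FPKM in mutants and 1.44, 1.08 and 0.888 FPKM in controls. Its mean over all libraries was 0.996 FPKM, and that of Hoxb4, just above that level, was 1.003 FPKM.

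Paralogue group 4 takes part in patterning the neck vertebrae. Hoxa4 had 1.99, 1.50 and 1.49 FPKM in mutants and 1.88, 1.72 and 2.03 FPKM in controls. Hoxb4, also known from blood stem cells, had 0.583, 0.954 and 1.15 FPKM in mutants and 1.14, 1.16 and 1.03 FPKM in controls. Mutant 1 was the lowest library for Hoxb4 and the second highest for Hoxa4, and both groups overlapped for both genes. Hoxc4 averaged 0.375 ± 0.133 FPKM (SD, n = 6 libraries), the highest level in HoxC.

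Hoxa5, known for its part in the development of lung and gut mesenchyme, had 1.11, 1.91 and 2.03 FPKM in mutants and 1.58, 1.99 and 2.45 FPKM in controls. Hoxb5, known from the development of enteric neurons, had 1.49, 1.06 and 1.03 FPKM in mutants and 1.52, 1.57 and 1.35 FPKM in controls. Mutant 1 was the lowest library for Hoxa5 and the highest mutant for Hoxb5. The third gene of the group, Hoxc5, averaged 0.127 ± 0.0604 FPKM (SD, n = 6 libraries).

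In the order of mean FPKM, Hoxb2 (2.72), Hoxa5 (1.84), Hoxa4 (1.77), Hoxb5 (1.33), Hoxa3 (1.20), Hoxa2 (1.045), Hoxb4 (1.003) and Hoxb3 (0.996) came first. Neighbours in this order were separated in all 6 libraries at 3 places, between Hoxb2 and Hoxa5, between Hoxa4 and Hoxb5, and between Hoxb3 and the ninth gene, Hoxc4. At the other places the higher mean was the higher value in 3 or 4 of 6 libraries, so those neighbours did not differ beyond their spread. Hoxb2 stood above 55.3% of all rows of the gene tables and Hoxb3 above 46.9%.

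**Figure D2:**
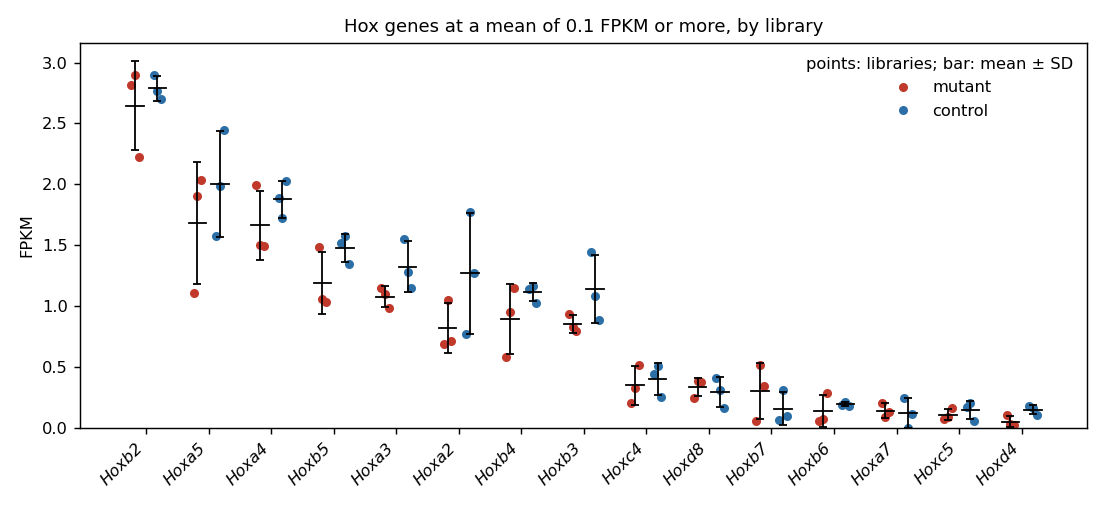
FPKM of Hox genes with a mean of at least 0.1 FPKM, with mutant libraries on the left and control libraries on the right of each gene; points are libraries, and bars are the mean and SD of 3. The 8 genes from Hoxb2 to Hoxb3 stand apart from the rest, and the groups overlap for each gene shown except Hoxd4.

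The step from paralogue number 5 to 6 appeared in every cluster that holds both genes. In HoxA, Hoxa5 had 375 implied reads in all and Hoxa6 had 1 read, in control 3, although the annotated genes are 1777 bases apart. Per length, the level of Hoxa5 was 110.6 times that of Hoxa6, with an exact 95% counting interval of 19.7 to 4379 that covers counting error only. The deposited transcript of Hoxa6 has 699 bases, against 1731 bases in the annotation used for shared runs. Hoxa5 has 1877 bases in both. The effect of this difference on the ratio was not tested. Hoxb5, with 263 reads, stood 7.89 times above Hoxb6, with 22 reads (interval 5.10 to 12.8), over 1942 bases. Hoxc5, with 38 reads, stood 10.4 times above Hoxc6, with 2 reads (interval 2.70 to 89.3), over 2126 bases. For each of the 3 pairs the gene numbered 5 was the higher in 6 of 6 libraries. In HoxC the level had already dropped before this step, with Hoxc4 2.99 times above Hoxc5 (interval 2.01 to 4.52), in 6 of 6 libraries. The mean of Hoxc5, 0.127 FPKM, was below that of Hoxb6, 0.166 FPKM.

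Beyond this step HoxA and HoxB kept a low signal at paralogue number 7. Hoxa7 had 25 reads and stood 29.6 times above Hoxa9, with 1 read (interval 4.85 to 1215). Hoxb7 had 33 reads and stood 15.1 times above Hoxb8, with 5 reads (interval 5.88 to 49.7). Of the 16 genes at 0.1 FPKM or more, Hoxb7 varied most among libraries relative to its mean, with 0.0564, 0.513 and 0.346 FPKM in mutants and 0.0670, 0.313 and 0.0952 FPKM in controls. Hoxb9 had 12 reads, and Hoxb13, known from the hindgut and prostate, had 3 reads spread over 3 libraries.

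HoxD, which has no gene numbered 5, 6 or 7, had another pattern. Its highest gene was Hoxd8, with 46 reads and 0.316 ± 0.0942 FPKM (SD, n = 6 libraries), above Hoxd4 in 6 of 6 libraries. Hoxd8 stood 5.11 times above Hoxd9, with 14 reads (interval 2.76 to 10.1), and Hoxd10 had no read. The HoxD genes numbered 10 to 13, among them Hoxd13 with its known part in the hindgut and the digits, were all listed at 0.

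At the high end of the clusters, 11 of the 12 genes numbered 10 to 13 were at 0 in every library, and Hoxb13 was the exception. These were Hoxa10, Hoxa11, Hoxa13, Hoxc10, Hoxc11, Hoxc12, Hoxc13, Hoxd10, Hoxd11, Hoxd12 and Hoxd13. Hoxc8 and Hoxd1 were also at 0. A count of 0 allows up to 3 reads, which is 0.0496 to 0.336 FPKM in 1 library, depending on the gene's length and the library's depth. Of the 24 genes numbered 6 to 13, none averaged 1 FPKM, and 4 (Hoxb6, Hoxa7, Hoxb7 and Hoxd8) averaged at least 0.1 FPKM.

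At the low end of HoxB, Hoxb1, known from the hindbrain, had 1 read, in mutant 2, beside 459 reads of Hoxb2. At the low end of HoxD, Hoxd1 had none.

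The summed FPKM of all Hox genes divided into 91.6 ± 2.92% in paralogue numbers 1 to 5 in mutants and 93.5 ± 0.538% in controls (SD, n = 3 each). Numbers 1 to 8 held 99.1 ± 0.538% in mutants and 99.0 ± 0.330% in controls. By cluster, HoxA held 44.0 ± 0.397% in mutants and 45.8 ± 4.38% in controls, and HoxB held 48.5 ± 1.53% in mutants and 46.7 ± 2.46% in controls. HoxC held 3.75 ± 1.53% in mutants and 3.72 ± 1.14% in controls, and HoxD held 3.78 ± 0.393% in mutants and 3.77 ± 1.10% in controls. The ranges of the groups overlapped for each of these shares.

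**Figure D3:**
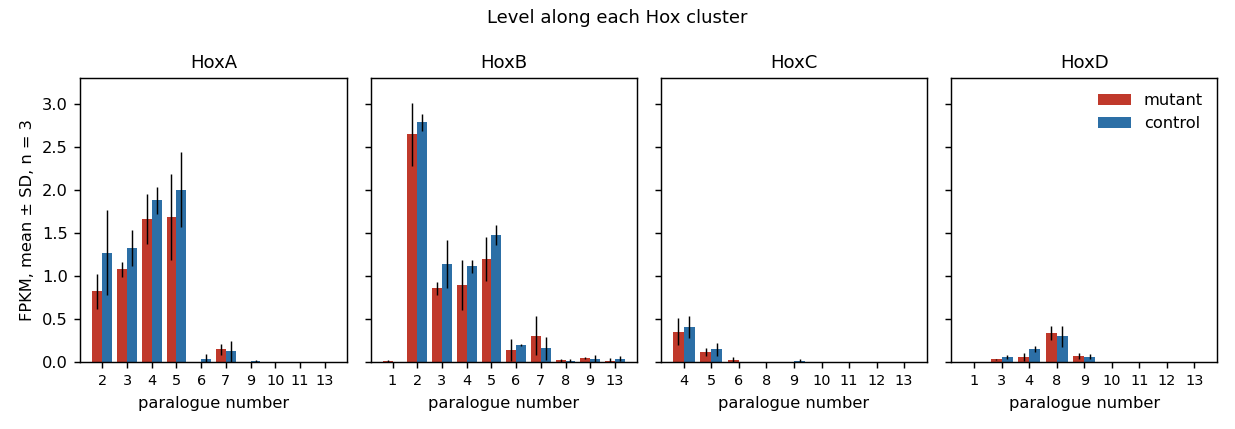
Mean FPKM along each cluster by paralogue number, with the mutant bar left of the control bar and the SD of 3 libraries as error bars. In both groups HoxA and HoxB end their high stretch at paralogue number 5, and HoxD has its highest bar at 8.

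The spans of Hoxa3 and Hoxd3 take in other Hox genes on the same strand, Hoxa3 those of Hoxa4, Hoxa5 and Hoxa6, and Hoxd3 that of Hoxd4. Reads in such overlaps, and reads of antisense transcripts, cannot be told apart from those of the named gene, since counting by strand is not stated in the sources used here. The deposited tables hold 1 RefSeq transcript for each Hox gene except Hoxa10 and Hoxb3, which have 2. The 2 transcripts of Hoxb3 took turns between libraries. NM_001079869 had 0.243, 0.829 and 2.37e-05 FPKM in mutants and 3.68e-05, 0.556 and 0.888 FPKM in controls, and NM_010458 had 0.694, 0.000363 and 0.798 FPKM in mutants and 1.44, 0.528 and 0.000102 FPKM in controls. Only the sum of both is used for Hoxb3.

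The promoters of Hoxa5 and Hoxa6 are shown because these neighbours had 375 reads and 1 read. They run from 250 bases before to 50 bases after the start of the gene, from RefSeq on build GRCm38.p6, 5′ to 3′ on the gene's strand, with CG dinucleotides in capitals.
Hoxa5 (chr6:52204538-52204837, minus strand): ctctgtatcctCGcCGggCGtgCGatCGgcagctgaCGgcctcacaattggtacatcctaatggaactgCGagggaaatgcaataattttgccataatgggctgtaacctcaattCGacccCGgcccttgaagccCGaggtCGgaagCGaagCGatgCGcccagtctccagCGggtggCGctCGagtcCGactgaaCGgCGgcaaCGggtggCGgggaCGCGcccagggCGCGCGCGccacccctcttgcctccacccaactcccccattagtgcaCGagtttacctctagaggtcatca
Hoxa6 (chr6:52208623-52208922, minus strand): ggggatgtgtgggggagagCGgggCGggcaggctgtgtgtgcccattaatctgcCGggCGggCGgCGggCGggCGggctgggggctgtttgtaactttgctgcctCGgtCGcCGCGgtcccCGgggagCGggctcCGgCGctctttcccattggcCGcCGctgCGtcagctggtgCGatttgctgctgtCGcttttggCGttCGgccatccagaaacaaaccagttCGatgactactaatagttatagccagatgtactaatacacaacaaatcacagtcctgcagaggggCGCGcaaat

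Hoxa5 had 29 CG and Hoxa6 had 26 CG in these windows, so the 2 promoters were close in this respect. Of all 32851 promoters of this length, with a median of 7 CG, 12.9% had at least as many as Hoxa5 and 16.9% at least as many as Hoxa6. An entry in this RefSeq set was found for 22 Hox genes, with 24 promoters and 4 to 45 CG. The largest count was that of Hoxa13 and the smallest was that of Hoxd4, Hoxa9 and 1 of the 2 Hoxd11 promoters. The letters CCAAT, on either strand, stood once each in the windows of Hoxa5 and Hoxa6 and in 37.4% of all promoters. The letters TATAAA, on either strand, were in neither window and in 13.6% of all promoters.

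The comparison of mutant with control asks whether the change of Nkx2.2 function altered transcripts of the duodenum. Nkx2-2, the targeted gene, had 0.748, 0.744 and 0.666 FPKM in mutants and 1.00, 1.03 and 1.27 FPKM in controls (log2 fold change −0.54, SE 0.16, adjusted p = 0.786, limma). No Hox gene differed between the groups after adjustment, by limma on log2(FPKM + 0.1) with Benjamini-Hochberg adjustment over all 15864 rows with a mean of at least 0.1 FPKM. None of those rows passed either, so the share called was 0%, and the smallest adjusted p of any row was 0.255. Of the Hox genes 16 passed this filter, 12 of the 15 numbered 1 to 5 and 4 of the 24 numbered 6 to 13, and 23 were below it. At an unadjusted p under 0.05, limma gave 0 of the 16 Hox genes and 5.81% of all tested rows (4.32% lower and 1.49% higher in mutants). In the authors' deposited table all 26 Hox genes with a p-value had an adjusted p of 1. The share called over all rows of that table is not given here. With the replicate number as a block, the count of all rows called was 2 (Chga and Mt1), and 1 Hox gene, Hoxa2, had an unadjusted p under 0.05 and an adjusted p of 0.606 (limma).

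Log2 fold changes below are mutant minus control and negative where mutants were lower. Hoxd4 had the largest, −0.75 (SE 0.33, 95% interval −1.53 to 0.03, adjusted p = 0.786, limma). That value depends on the pseudocount, with −1.59 at a pseudocount of 0.01, −0.13 at a pseudocount of 1 and −1.66 with voom on implied reads. Hoxd4 had 0.102, 0.0330 and 0.0195 FPKM in mutants, against 0.181, 0.161 and 0.107 FPKM in controls. These values rest on 4, 2 and 1 reads in mutants and 6, 8 and 5 reads in controls. Every mutant lay below every control, and Hoxd4 was the only tested Hox gene whose groups did not overlap. Its mean of 0.101 FPKM passed the filter only through the controls, which averaged 0.150 FPKM against 0.0514 FPKM in mutants. With any 1 control left out, Hoxd4 fell below the filter. Of all tested rows 13.1% had groups that did not overlap, 9.92% with mutants lower and 3.13% with mutants higher, so 1 of 16 is no more than the share of all rows. After trimmed mean scaling the shares of all rows were 12.8% and 5.88%. In the authors' deposited table Hoxd4 had the smallest p-value of the Hox genes, 0.0773, and a ratio of mutant over control of 0.321.

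Hoxd3, which lies over Hoxd4 and was below the filter, also had groups that did not overlap. It had 0.0222, 0.0288 and 0.0340 FPKM in mutants and 0.0791, 0.0352 and 0.0562 FPKM in controls. These are 1, 2 and 2 reads in mutants and 3, 2 and 3 reads in controls, and mutant 2, mutant 3 and control 2, with 2 reads each, differ in FPKM by the size of their libraries alone.

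Of the other genes at about 1 FPKM, Hoxa2 had a log2 fold change of −0.53 (SE 0.31, 95% interval −1.26 to 0.21), Hoxb3 one of −0.35 (SE 0.20) and Hoxb4 one of −0.33 (SE 0.24). Hoxb5 had −0.30 (SE 0.18), Hoxa3 −0.27 (SE 0.16), Hoxa5 −0.26 (SE 0.26) and Hoxa4 −0.18 (SE 0.16). Hoxb2, the most abundant, had −0.08 (SE 0.13, 95% interval −0.40 to 0.23). Each interval held 0. Leaving out 1 library moved several of these values by over 1.5 times: Hoxa5 ran from −0.41 (without control 1) to −0.0028 (without mutant 1), Hoxb4 from −0.51 (without mutant 3) to −0.078 (without mutant 1), and Hoxa2 from −0.82 (without control 1) to −0.27 (without control 2). Hoxb5 ran from −0.46 (without mutant 1) to −0.22, Hoxb3 from −0.50 to −0.18 (without control 1), Hoxa3 from −0.36 to −0.16 (without control 1), and Hoxa4 from −0.31 (without mutant 1) to −0.11 (without mutant 3). Hoxb2 changed sign, to 0.034 without mutant 3.

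Among the rest, Hoxb7 had 0.56 (SE 0.59), Hoxa7 0.28 (SE 0.49) and Hoxd8 0.17 (SE 0.31). Hoxb6 had −0.45 (SE 0.40), Hoxc5 −0.20 (SE 0.36) and Hoxc4 −0.18 (SE 0.34). All of these intervals held 0, and the widest was that of Hoxb7, from −0.85 to 1.96. When 1 library was left out, Hoxb7 ran from 0.15 (without mutant 2) to 1.14 (without mutant 1) and Hoxb6 from −0.87 (without mutant 3) to −0.20 (without mutant 1). The pseudocount of 0.1 is not small beside the levels of these genes, so their log2 fold changes understate any change in FPKM.

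**Figure D4:**
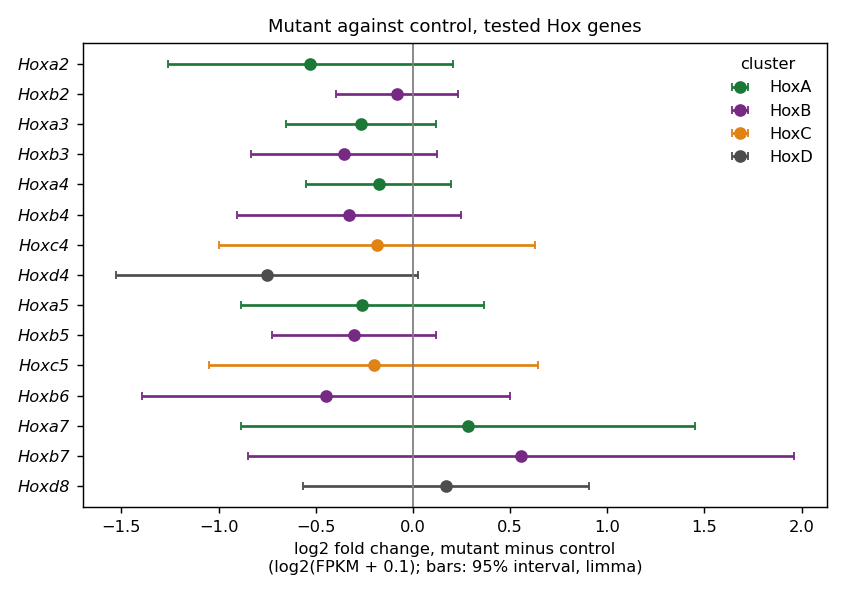
Log2 fold change, mutant minus control, of tested Hox genes on log2(FPKM + 0.1), ordered by paralogue number from the top and coloured by cluster; bars are 95% intervals from limma. Every interval shown crosses 0, and Hoxd4 lies farthest below it.

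As a family, 12 of the 16 tested Hox genes had a negative log2 fold change, against 61.3% of all tested rows. The median was −0.23 for the Hox genes and −0.05 for all tested rows. Summed over all 39 genes, Hox FPKM was 11.9, 13.2 and 12.7 in mutants 1, 2 and 3, against 14.9, 15.4 and 14.3 in controls 1, 2 and 3. The sums did not overlap and had a ratio of 0.849, mutant over control, and 0.883 after trimmed mean scaling. HoxA summed to 5.28, 5.82 and 5.54 FPKM in mutants and 6.22, 6.97 and 7.20 FPKM in controls. HoxB summed to 5.96, 6.40 and 5.97 FPKM in mutants and 7.32, 7.22 and 6.32 FPKM in controls, where control 3 lay below mutant 2. These sums are given without a test. In bulk tissue, fewer cells of a type and less RNA per cell cannot be told apart.

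Markers of the muscle layer and of the enteric nervous system also had lower sums in mutants. All 10 smooth muscle genes had negative log2 fold changes, with a median of −0.45, and 8 had groups that did not overlap. Of all tested rows, 61.3% were negative and 9.92% were lower in mutants without overlap. On deposited FPKM, the summed level of the smooth muscle genes was 582 to 756 FPKM in mutants and 779 to 1054 FPKM in controls, with none of the 10 at 0. Trimmed mean scaling divides mutant 3, the highest mutant, by 0.9625 and control 1, the lowest control, by 1.05. This puts mutant 3 above control 1, so the smooth muscle sums then overlap. Myh11, smooth muscle myosin heavy chain, had a log2 fold change of −0.52 (SE 0.10, adjusted p = 0.786, limma). Of 11 genes of enteric neurons and glia, 9 were negative, with a median of −0.26 and a summed level of 17.8 to 19.5 FPKM in mutants and 21.8 to 24.3 FPKM in controls. The part of these cell types in the Hox sums was not tested.

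Other cell types had sums that overlapped. Fibroblast and matrix genes summed to 339 to 400.0 FPKM in mutants and 375 to 399 FPKM in controls, with a median log2 fold change of −0.07. Of these 10 genes 7 were negative and 2 (Postn and Lum) were lower in mutants without overlap, beside 61.3% and 9.92% of all tested rows. Endothelial genes summed to 41.0 to 48.3 FPKM in mutants and 42.5 to 50.1 FPKM in controls, with a median of −0.10. All 6 endothelial genes were negative, and 0 had groups that did not overlap. Epithelial genes summed to 8598 to 10630 FPKM in mutants and 7374 to 10273 FPKM in controls, with a median of 0.04. Pancreatic acinar genes, which mark pancreas caught with the duodenum, summed to 2231 to 9672 FPKM in mutants and 23.6 to 8381 FPKM in controls. All 10 acinar genes had positive log2 fold changes, with a median of 3.32, and 0 had groups that did not overlap. The acinar sums were highest in the library numbered 3 of each group. Without both of these libraries the ratio of the Hox sums was 0.828. The acinar sums that remain are 2231 and 2249 FPKM in mutants 1 and 2, against 23.6 and 333 FPKM in controls 1 and 2. Leaving these libraries out thus does not balance the pancreas between the groups, and its part in the Hox sums was not tested.

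**Figure D5:**
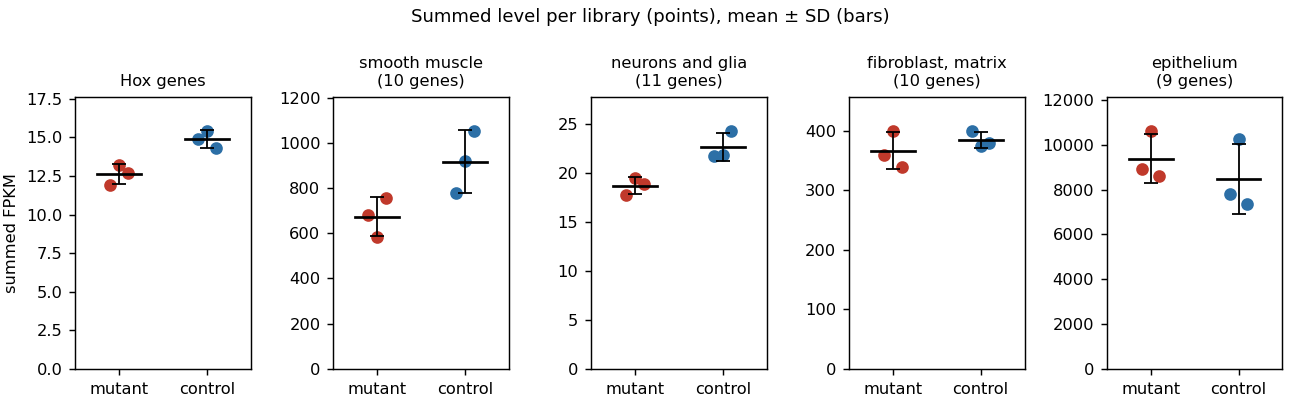
Summed FPKM per library of the 39 Hox genes and of 4 marker lists, mutants left and controls right; points are libraries, and bars are the mean and SD of 3. On deposited FPKM, the Hox, smooth muscle, and neuron and glia sums do not overlap between the groups, whereas the fibroblast and epithelial sums do.

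The site of the sample was checked against markers of its neighbours. Of 6 stomach genes Muc5ac was at 0 in every library, and the list summed to 2.34 to 4.07 FPKM in mutants and 2.19 to 4.84 FPKM in controls. Sox2, a factor of foregut epithelium, had at most 0.0797 FPKM in a mutant and 0.0632 FPKM in a control. Pdx1, a ParaHox gene of the duodenum and pancreas, had 59.9 to 83.1 FPKM in mutants and 64.7 to 82.7 FPKM in controls. Of 6 genes of distal intestine and colon, Car1 was at 0 in every library, while Car4 had 35.4 to 63.0 FPKM in mutants and 56.7 to 81.6 FPKM in controls, and Slc37a2 had 55.6 to 69.0 FPKM in mutants and 41.3 to 60.4 FPKM in controls. Fabp6, Slc10a2 and Cubn had at most 2.89 FPKM in mutants and 2.05 FPKM in controls. Of the remaining lists, 7 leukocyte and 5 adipocyte genes overlapped in their sums, and so did 4 mesothelial genes, with at most 0.965 FPKM in mutants and 3.71 FPKM in controls. The adipocyte sums, 68.3 to 99.5 FPKM, were mostly Cidec, with 67.1 to 98.2 FPKM. Cfd, 1 of 3 tested adipocyte genes, was lower in mutants without overlap, with 0.257 to 0.870 FPKM against 0.990 to 2.06 FPKM in controls. Of the 7 leukocyte genes 1, Ptprc, was also lower without overlap, beside 9.92% of all tested rows.

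The partners of Hox proteins had a higher summed level than the Hox genes themselves. The TALE homeodomain proteins, which bind DNA together with Hox proteins, summed over 9 genes to 43.8 to 47.2 FPKM in mutants and 45.5 to 48.3 FPKM in controls, and 0 of 9 passed adjustment. Pbx2 had 12.4 to 14.4 FPKM in mutants and 12.7 to 14.1 FPKM in controls. Meis2 had 11.3 to 12.1 FPKM in mutants and 11.3 to 12.6 FPKM in controls.

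Cdx1 and Cdx2, homeobox factors of intestinal epithelium that act upstream of Hox genes in the embryo, averaged 55.8 ± 4.39 and 66.4 ± 5.76 FPKM in mutants, against 53.5 ± 3.31 and 66.7 ± 2.50 FPKM in controls (SD, n = 3 each). The ParaHox genes Gsx1 and Gsx2 were at 0 in every library. None of 15 Polycomb genes, whose products repress Hox clusters, and none of 9 Trithorax genes, whose products keep them active, passed adjustment or had an unadjusted p under 0.05. Their median log2 fold changes were −0.04 in both lists. Of 12 tested genes of the retinoic acid pathway, a known inducer of the low-numbered Hox genes, 0 passed adjustment and the median was 0.03.

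Genes that flank the clusters differed widely in level. Skap2, beyond the low-numbered end of HoxA, had 32.8 to 39.0 FPKM in mutants and 30.0 to 38.0 FPKM in controls, whereas Evx1, next to Hoxa13, was at 0 in mutants and had at most 0.0266 FPKM in controls. Evx2, next to Hoxd13, was at 0. Of 9 flanking genes tested, 0 passed adjustment and the median log2 fold change was −0.0023. Of 17 genes for the position of the gut mesenchyme and foregut, 13 were tested, 11 had negative values with a median of −0.13, and 0 passed adjustment. Of 13 noncoding genes of the Hox clusters 6 had a row, the antisense gene Hoxa11as and 5 microRNA genes, and all 6 were at 0 in every library. Libraries of this kind do not capture mature microRNAs.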

How the data were processed

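Per the labels' protocols, tissue was kept in RNAlater and libraries were made with the TruSeq RNA kit. The submitters' processing notes name mm9 as the build and TopHat, Cufflinks, DESeq and CASAVA 1.8.2 as tools, with no version for the first 3. The authors deposited FPKM with confidence intervals for genes and for RefSeq transcripts, per the file headers. The authors' deposited DESeq table holds group means as a normalized signal, a fold as a ratio and as log2, and p-values.

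All rows were fitted on log2(FPKM + 0.1) by limma 3.58.1 (R 4.3.3; variance prior with a trend), without a block or rescaling, where the mean was at least 0.1 FPKM, with a threshold of 0.05 for adjusted p-values. The pseudocount understates the fold changes of low genes. The code was tested on simulated data. Depth came from the intervals, taking the distance from a value to its upper bound as 2 standard errors. Implied reads were within 0.05 of a whole number for 87.8% to 88.2% of genes with 1 transcript and under 500 reads, and summed to 16.88, 25.91 and 21.97 M (megareads) in mutants 1, 2 and 3 and 14.21, 21.25 and 19.91 M in controls 1, 2 and 3.

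Some genes and sequences, among them 1 Hox gene that is part of the counts and sums, are not reported here by name. The members and lists were chosen with earlier results of these data known. Values in every library were given for Hox genes at 1 FPKM or more and for those with an unadjusted p under 0.05 or groups that did not overlap, and for Hoxb3 and Hoxb7, chosen after their values were seen. Of each other list, members were named from the 3 smallest p-values or for their known role. The labels give each animal a number and no litter or batch. The block pairs libraries by the number in their titles. Deviations of same-numbered libraries correlated at 0.106, 0.207 and 0.389 across genes for numbers 1, 2 and 3. Libraries with different numbers correlated at −0.28 to 0.13, and mutant 2 with control 1 (0.127) lay above the pair numbered 1. An exact permutation test of 3 against 3 libraries cannot go below 0.1 two-sided. Alternatives changed the pseudocount, the filter, the scaling, the variance model, library weights, the block and the libraries. Limma voom on implied reads, leaving out both libraries numbered 3, and all alternatives for the summed Hox FPKM were added after seeing the data.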

Additional observations from a re-analysis of the deposited data

How the results depend on the processing

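No Hox gene passed adjustment in any of the 17 alternatives (smallest adjusted p 0.606, limma). The pairing by replicate number, used as a block, gave 2 rows called over all genes and 1 Hox gene, Hoxa2, with an unadjusted p under 0.05. That number was also 1 (Hoxd4) with no filter on low values, without trend and with voom on implied reads, and 0 to 2 when 1 library was left out. The share of all rows at an unadjusted p under 0.05 is given for the main fit only (5.81%, limma). All rows called numbered 0 to 3 when 1 library was left out and 1 without both libraries numbered 3. Hox genes with groups that did not overlap numbered 2 with no filter, beside 9.58% of all rows. They numbered 0 with a filter at 1 FPKM (13.3% of all rows) and 0 after quantile normalization (11.3% of all rows). When 1 library was left out they numbered 0 to 6, where 19.4% to 27.8% of all rows did not overlap. Without both libraries numbered 3 there were 9, all lower in mutants, beside 24.7% of all rows lower without overlap. The median log2 fold change of the Hox genes was 0 with no filter, which adds the genes at 0, and −0.36 to −0.10 when 1 library was left out.

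Of 244 alternatives for the named genes 237 kept their direction. The log2 fold change of Hoxb2 turned to 0.0055 after quantile normalization and 0.011 without both libraries numbered 3, and ran from −0.15 to 0.034 when 1 library was left out, the highest without mutant 3. Hoxc4 ran from −0.44 to 0.072 (without mutant 1), and Hoxa7 from −0.20 (without control 2) to 0.69. Hoxd8 ran from −0.089 (without control 3) to 0.38, and was −0.16 without both libraries numbered 3. Hoxd4 was below the filter with any 1 control left out and with a filter at 1 FPKM. In the other 13 alternatives it kept its sign, from −1.66 to −0.13. The cause was not tested.

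The number of Hox genes at the level of 1 FPKM was 1 at a minimum of 2 FPKM, with 2 the highest paralogue number, and 4 when each library had to reach 1 FPKM. It was 5 to 8 when 1 library was left out, with 5 the highest paralogue number throughout. The share in paralogue numbers 1 to 8 was 98.5% with summed log2(FPKM + 1) and 98.9% to 99.1% when 1 library was left out. The ratio of the Hox sums was 0.829 to 0.872 when 1 library was left out. Depth limits the genes with few reads, of which 5 had 1 or 2 reads in all libraries together.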
